A study of Mus musculus with 9 samples.

Results

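A set of 10 mouse genes that each span 458 to 1998 kb, Macrod2, Fhit, Naaladl2, Astn2, Ntm, Immp2l, Wwox, Dpyd, Exoc4 and Gphn, was followed in livers of cisplatin-injured mice. The 10 were picked by name from 57010 genes in the deposited table, under the working description of very long genes lost after cisplatin, which rests on their values in cisplatin-injured against untreated livers. Of the 10, 8 had lower levels in the injured livers, but Dpyd and Gphn among these stayed well expressed and were not lost. Exoc4 and Macrod2 had higher levels in the injured livers, so the set is called the 10 long genes here. The question put to them was whether DNA adducts that block the polymerase could account for lower levels, and whether all long genes were lower. Neither adducts nor elongation was measured, so the first point was not tested; the second is addressed with 212 other tested genes of at least 300 kb.

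Gene expression was measured by RNA sequencing in 9 liver libraries of male BALB/c mice, 3 in each of 3 groups. The groups were AT3 livers, CPT livers and CON livers. Mice of AT3 and of CPT carry the same treatment label, acute liver injury induced by cisplatin, and CON mice were untreated. AT3 is not spelled out in the labels; a plant lactone, atractylenolide III, appears in the title of the series. The sources used here give no age, dose, route or time. They also do not say whether each library came from its own animal, so the p-values reflect only how far these libraries vary. Libraries held 21485021 to 28480479 estimated counts.

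A long gene takes RNA polymerase II a long time to cross, since nearly all of its span is intron and every base has to be transcribed before the transcript is complete. Cisplatin binds mainly to neighbouring guanines of one DNA strand, and a bulky adduct on the transcribed strand can stall the polymerase until transcription-coupled repair removes it. Several of the 10 genes, FHIT, WWOX, IMMP2L and MACROD2 among them, are known in human cells as hosts of common fragile sites, regions that break under replication stress.

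In the GENCODE M21 annotation of the GRCm38 genome all 10 were protein-coding and their exons covered 0.0925% to 1.74% of the span. Macrod2 lies on chromosome 2 from 140395309 to 142392966 (1998 kb), Fhit on chromosome 14 from 9550092 to 11162035 (1612 kb) and Naaladl2 on chromosome 3 from 23798102 to 25144261 (1346 kb). Astn2 lies on chromosome 4 from 65380803 to 66404611 (1024 kb), Ntm on chromosome 9 from 28994750 to 29963141 (968 kb) and Immp2l on chromosome 12 from 41024090 to 41955588 (931 kb). Wwox lies on chromosome 8 from 114439655 to 115352708 (913 kb), Dpyd on chromosome 3 from 118562129 to 119432924 (871 kb), Exoc4 on chromosome 6 from 33249085 to 33973979 (725 kb) and Gphn on chromosome 12 from 78226379 to 78684772 (458 kb). RefSeq spans of the 10 differed from these by less than 1 kb, except for Gphn with 467 kb.

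RefSeq gives promoter windows, 250 bases before to 50 after a transcript start, for 8 of the 10 genes on GRCm38.p6. Those of Immp2l and Fhit, whose transcripts were far lower in CPT livers, and of Exoc4, whose transcripts were higher, are shown to set genes of opposite direction side by side. Capitals mark neighbouring guanines on either strand (GG or CC), the pair to which cisplatin chiefly binds. Each sequence reads in the direction of its gene. The windows lie at chr12:41023840-41024139 (plus strand) for Immp2l, chr14:11161986-11162285 (minus strand) for Fhit and chr6:33248878-33249177 (plus strand) for Exoc4.
Immp2l: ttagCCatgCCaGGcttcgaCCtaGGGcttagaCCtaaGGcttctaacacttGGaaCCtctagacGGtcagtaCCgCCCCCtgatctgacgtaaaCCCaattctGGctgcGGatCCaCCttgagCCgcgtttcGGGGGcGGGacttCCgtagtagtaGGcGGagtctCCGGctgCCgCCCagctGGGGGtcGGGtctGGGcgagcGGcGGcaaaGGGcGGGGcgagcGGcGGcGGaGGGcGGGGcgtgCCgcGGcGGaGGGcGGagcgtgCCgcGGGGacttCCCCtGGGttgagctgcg
Fhit: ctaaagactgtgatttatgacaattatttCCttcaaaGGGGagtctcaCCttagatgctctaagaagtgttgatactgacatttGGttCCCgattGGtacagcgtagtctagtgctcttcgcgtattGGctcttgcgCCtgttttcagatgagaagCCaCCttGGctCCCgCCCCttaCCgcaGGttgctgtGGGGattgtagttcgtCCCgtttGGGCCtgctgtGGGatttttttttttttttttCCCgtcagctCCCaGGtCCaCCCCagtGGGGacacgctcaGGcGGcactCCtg
Exoc4: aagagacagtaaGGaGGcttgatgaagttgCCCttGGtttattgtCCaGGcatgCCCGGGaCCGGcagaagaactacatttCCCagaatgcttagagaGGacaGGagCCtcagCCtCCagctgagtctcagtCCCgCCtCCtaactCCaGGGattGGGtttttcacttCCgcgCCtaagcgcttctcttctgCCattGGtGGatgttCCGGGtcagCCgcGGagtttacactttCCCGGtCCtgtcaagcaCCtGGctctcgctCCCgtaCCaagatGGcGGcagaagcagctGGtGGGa
Such pairs, counted at every position, numbered 75 in the Immp2l window, 46 in that of Fhit and 53 in that of Exoc4, against a median of 48 over 32851 promoter windows of the same length. Over the 8 genes they ranged from 46 to 86. The median of the 8 was 64.5. Windows with at least as many pairs made up 12.05% of all windows for Immp2l, 54.97% for Fhit and 41.87% for Exoc4, and over the 8 genes 4.563% (Gphn) to 54.97%. The TATA motif TATAAA, searched on both strands, was in 0 of the 8 windows and in 13.6% of all windows. A GC box, GGGCGG on either strand, was in 6 of the 8 and in 35.7% of all, and its guanines overlap the marked pairs. The window used for Ntm, chr9:29413403-29413702 (minus strand), lies inside the gene, far from its outer start at 29963141. It has 51 pairs and neither motif, and is counted among the 8.

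Levels are given as counts, as CPM (counts scaled by edgeR's TMM to a common library size) and, between genes, as TPM, which also divides by transcript length. Values of CPT against CON chose the genes, so for the 10 they are a description without a test, as are those of AT3 against CON, which share the CON libraries. Of the 10, 8 had every CPT library below every CON library and 2 had every CPT library above. Over all 13686 tested genes 32.7% lay below and 31.5% above without overlap (64.2% either way), and edgeR called 60.8% either way; nothing is read from this because the genes were chosen on it. The same 8 were lower and the same 2 higher in every AT3 than in every CON library, where 35.9% of tested genes lay below and 34.5% above (70.3% either way). All 10 passed the filter on low counts, Naaladl2, Ntm, Astn2, Fhit and Immp2l through their CON libraries alone, so their difference is in part built into the filter.

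Immp2l encodes a subunit of the mitochondrial inner membrane peptidase. It had 12, 8 and 24 counts in AT3 livers, 6, 7 and 5 counts in CPT livers, and 708, 874 and 689 counts in CON livers. The levels were 0.501 ± 0.318 CPM in AT3, 0.207 ± 0.0135 CPM in CPT and 37.6 ± 2.92 CPM in CON (mean ± SD, n = 3 libraries each, as throughout). Both cisplatin groups lay far below CON with no overlap, and the fitted log2 fold change of CPT over CON was -7.46 ± 0.25 (SE), 177-fold lower.

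A group of 4 genes with low levels in untreated liver were at or near 0 counts in both cisplatin groups. Naaladl2, an enzyme-like relative of the glutamate carboxypeptidases, had 3, 1 and 0 counts in AT3 livers, 0 in each CPT liver, and 27, 60 and 45 in CON livers. Ntm, which encodes the cell adhesion protein neurotrimin, had 1, 3 and 1 counts in AT3 livers, 0 in each CPT liver, and 33, 43 and 43 in CON livers. With 3 counts over the group as the most that a count of 0 allows, Naaladl2 was at least 62.3-fold lower and Ntm at least 56.2-fold lower in CPT than in CON.

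Fhit, which encodes a diadenosine triphosphate hydrolase and is a candidate tumour suppressor in humans, had 2, 0 and 0 counts in AT3 livers, 0, 0 and 1 in CPT livers, and 28, 53 and 37 in CON livers. Astn2, of the astrotactin family known from neuronal migration in mice, had 0 counts in each AT3 liver, 0, 0 and 1 in CPT livers, and 23, 28 and 16 in CON livers. The CON level, scaled for depth, was 167 times the CPT level for Fhit (95% exact counting interval 29.4 to 6655) and 94.9 times for Astn2 (16.5 to 3803). These intervals cover counting error only. In AT3 livers Astn2 was at least 33.0-fold lower than in CON livers. For these 4 genes the CON levels, 1.10 ± 0.196 CPM for Astn2 to 2.14 ± 0.542 CPM for Naaladl2, also set how large a decrease could be seen.

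Wwox, which encodes a WW-domain oxidoreductase, kept a low count in the injured livers. It had 22, 20 and 16 counts in AT3 livers, 28.9, 18 and 5 counts in CPT livers, and 154, 178 and 149 counts in CON livers. AT3 livers ranged from 0.573 to 0.722 CPM and CPT livers more widely, from 0.192 to 1.02 CPM, all below the CON livers. The fitted log2 fold change of CPT over CON was -3.73 ± 0.33 (SE), 13.2-fold lower.

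Dpyd and Gphn stayed well expressed. Dpyd encodes dihydropyrimidine dehydrogenase, the rate-limiting enzyme of pyrimidine breakdown, which is abundant in liver. It measured 59.6 ± 3.45 CPM in AT3, 46.5 ± 6.79 CPM in CPT and 168 ± 5.92 CPM in CON, with 1020 to 1535 counts in the CPT libraries and 2978 to 4155 in the CON libraries. The fitted log2 fold change of CPT over CON was -1.85 ± 0.11 (SE), 3.62-fold lower. Gphn encodes gephyrin, a scaffold of inhibitory synapses that also completes the molybdenum cofactor in liver and other tissues. Its level was 12.3 ± 0.735 CPM in AT3, 11.2 ± 2.01 CPM in CPT and 22.04 ± 1.68 CPM in CON, a log2 fold change of CPT over CON of -0.97 ± 0.13 (SE).

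The scale mattered for Gphn. On the TPM scale it measured 4.21 ± 0.333 in AT3, 3.31 ± 0.444 in CPT and 4.44 ± 0.370 in CON, and AT3 and CON libraries overlapped. On log2(TPM + 1) the median of all genes in CPT against CON was higher by 0.29, and by 0.51 on log2(TPM + 0.1), and the calls over all genes changed to 6631 higher and 1604 lower in CPT, against 4107 and 4219 by edgeR. The direction of each of the 10 in CPT against CON was the same on the edgeR scale and on both TPM scales.

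Exoc4 and Macrod2 went the other way. Exoc4 encodes a subunit of the exocyst, the complex that tethers secretory vesicles to the plasma membrane. It had 461, 496 and 508.19 counts in AT3 livers, 464, 416 and 399 counts in CPT livers, and 69, 105 and 58 counts in CON livers. Every injured liver lay above every untreated one, and the level in CPT was 14.9 ± 1.76 CPM, 3.93-fold that of CON at 3.75 ± 0.441 CPM (log2 fold change 1.98 ± 0.14, SE). Macrod2 encodes a hydrolase that removes ADP-ribose from proteins. It had 62, 77 and 54 counts in AT3 livers, 54, 80 and 47 counts in CPT livers, and 27, 34 and 26 counts in CON livers. The levels were 2.13 ± 0.253 CPM in AT3, 2.07 ± 0.369 CPM in CPT and 1.44 ± 0.0940 CPM in CON, and the log2 fold change of CPT over CON was 0.53 ± 0.24 (SE).

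**Figure D1:**
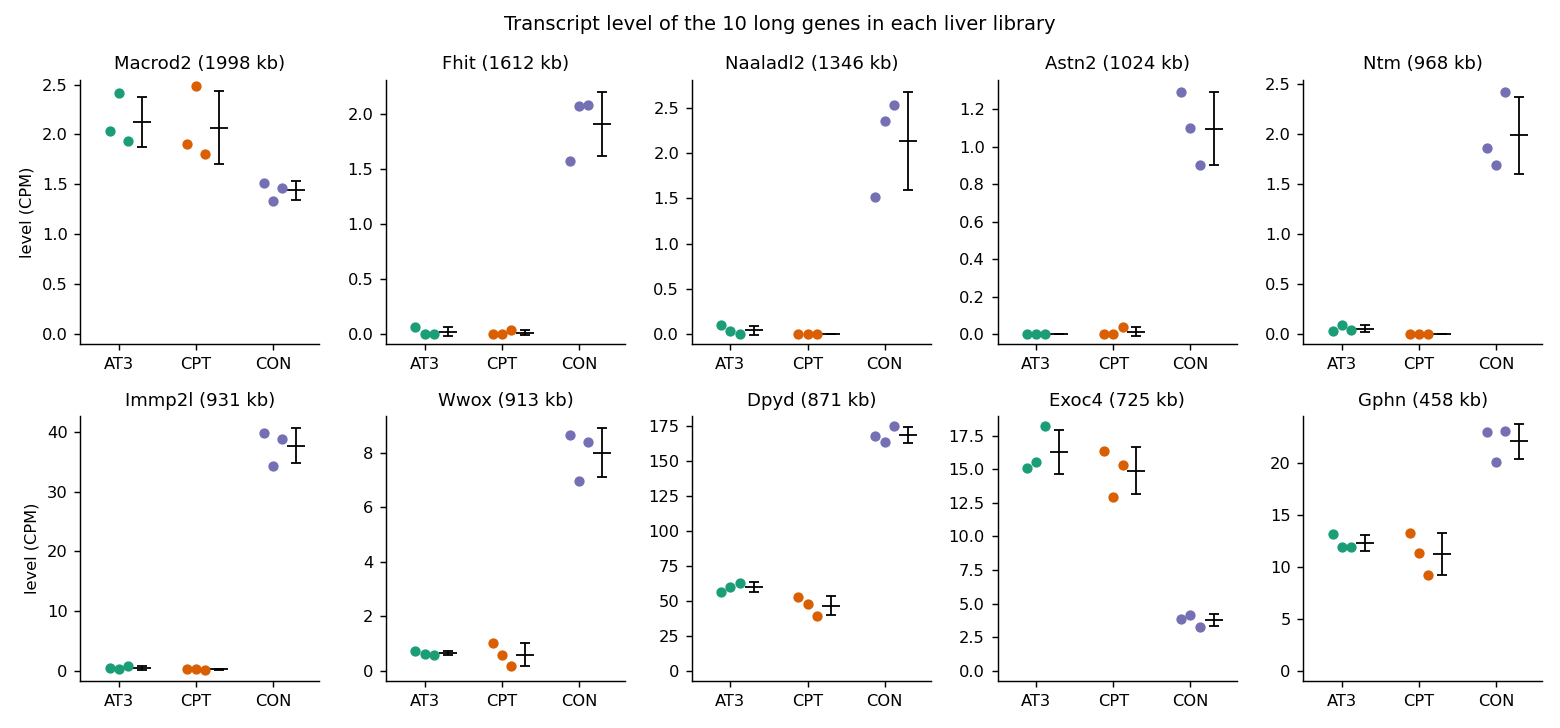
Level in CPM (linear axis from 0, its own range in each panel) of the 10 long genes in the 3 AT3, 3 CPT and 3 CON libraries; points are libraries and bars are the mean ± SD. In 8 panels AT3 and CPT lie below CON without overlap, and the Exoc4 and Macrod2 panels have them above CON.

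Per transcript length, the order of the genes differed between injured and untreated livers. In AT3 livers Dpyd was the most abundant at 14.3 ± 0.510 TPM, ahead of Gphn and Exoc4 at 3.81 ± 0.481 TPM, which overlapped, and Macrod2 at 2.48 ± 0.376 TPM, with Immp2l at 0.980 ± 0.402 TPM. CPT livers had Dpyd first at 10.8 ± 1.43 TPM, then Exoc4 at 3.38 ± 0.0569 TPM, Gphn and Macrod2 at 2.37 ± 0.474 TPM, with Immp2l at 0.573 ± 0.441 TPM; Gphn overlapped with both of its neighbours there. CON livers had Immp2l first at 30.04 ± 3.52 TPM, then Dpyd at 24.1 ± 3.15 TPM, whose libraries overlapped with those of Immp2l. Gphn followed, then Wwox at 2.47 ± 0.181 TPM and Fhit at 1.83 ± 0.491 TPM, whose libraries overlapped, then Macrod2 at 0.997 ± 0.154 TPM. Exoc4 at 0.533 ± 0.130 TPM and Ntm at 0.460 ± 0.0361 TPM overlapped, as did Astn2 at 0.150 ± 0.0436 TPM and Naaladl2 at 0.140 ± 0.0400 TPM.

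The comparison of AT3 with CPT addresses whether livers of the AT3 group differed from other injured livers at these genes. It was not used to choose the genes, but it shares the CPT libraries with the comparison that was. edgeR called 0 of the 10 at an adjusted p of 0.05, where 4.68% of all tested genes were called (2.46% higher, 2.22% lower). Dpyd came nearest (edgeR adjusted p = 0.0703), with a difference of 0.36 ± 0.11 (SE) on the log2 scale. Its 3 AT3 libraries, at 56.0, 59.9 and 62.9 CPM, all lay above the CPT libraries at 52.6, 47.8 and 39.2 CPM. Ntm and Immp2l also had all AT3 libraries above all CPT libraries, as had 14.5% of tested genes. For Immp2l the difference was 1.21 ± 0.43 (SE) on the log2 scale (edgeR adjusted p = 0.123). Ntm, with 1, 3 and 1 counts in AT3 and 0 in each CPT library, had edgeR adjusted p = 0.137. Counts this low set no lower bound on its difference.

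In this comparison 4 of the 10 had an unadjusted p under 0.05, as had 20.7% of all tested genes. DESeq2, which gave an adjusted p to 6 of them, called 1, Dpyd (adjusted p = 0.0192). Dpyd was also called by edgeR without CPT replicate 1 (adjusted p = 0.0362) and, with Immp2l, when no filter on low counts was applied. For Exoc4 the difference of AT3 from CPT was 0.13 on the log2 scale with an approximate 95% interval of -0.10 to 0.36, for Gphn 0.13 (-0.12 to 0.37) and for Macrod2 0.04 (-0.40 to 0.47). For Fhit and Astn2 the counts were too low to show a difference at this depth. The log2 fold changes of AT3 over CON, given as a description, were -6.25 ± 0.22 for Immp2l, -3.63 ± 0.32 for Wwox, -1.50 ± 0.11 for Dpyd, -0.84 ± 0.12 for Gphn, 2.11 ± 0.14 for Exoc4 and 0.57 ± 0.24 for Macrod2 (± SE).

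Not all long genes were lower in injured livers, but most were. The table holds 597 other genes of at least 300 kb, of which 166 had 0 counts in all 9 libraries, 219 had counts but were not tested and 212 were tested. Of these 212, 144 (67.9%) fell in CPT against CON, 18 (8.49%) rose and 50 were not called, where 30.8% of all tested genes fell and 60.8% were called either way (edgeR adjusted p under 0.05). Their median log2 fold change was -1.21, against -0.02 for all tested genes. On log2(TPM + 1) limma called 87 lower and 33 higher among them.

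The pattern was graded by span. Below 30 kb 26.4% of 8364 genes fell and 34.0% rose, with a median log2 fold change of 0.09. Between 100 and 300 kb 47.0% of 1237 genes fell, with a median of -0.40. Between 300 and 500 kb 65.7% of 143 genes fell (median -1.18), and from 500 kb upward 72.5% of 69 genes fell (median -1.34). The 13 genes of at least 1 Mb besides the 10 included 11 that fell and 1 that rose. Among the 11 was Fgfr2, which spans 2961 kb in GENCODE but 104 kb in RefSeq. Across 13422 genes, which share the libraries, Spearman's rho of span with the log2 fold change was -0.147, so span ordered single genes only loosely.

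**Figure D2:**
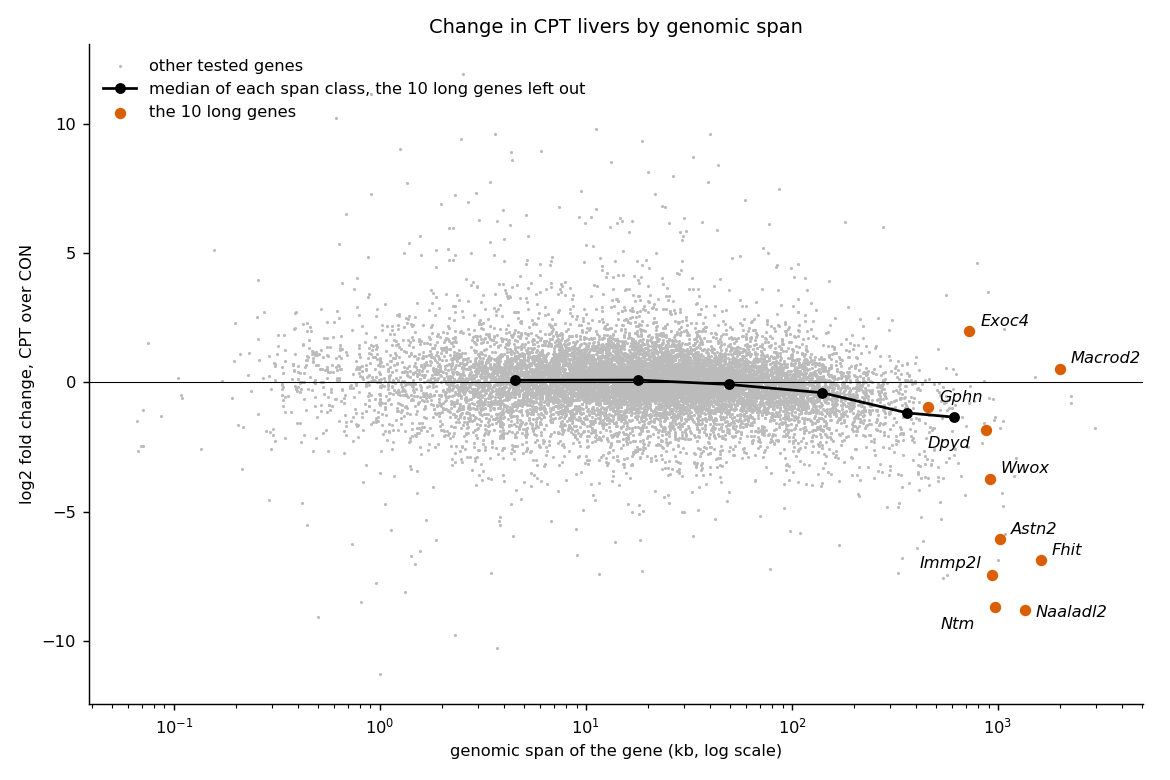
Log2 fold change of CPT over CON against genomic span (kb, log axis) for every tested gene with an annotated span; grey points are other genes, black points the median of each span class and orange points the 10 long genes. The class medians go down from 0.08 below 10 kb to -1.34 from 500 kb, while single genes of every span lie on both sides of 0.

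One value per library summarised this, the median log2 deviation of the 212 long genes minus that of genes under 30 kb. It was -0.435, -0.312 and -0.320 in AT3 livers, -0.413, -0.391 and -0.550 in CPT livers, and 0.797, 0.708 and 0.993 in CON livers. Injured and untreated livers did not overlap. CPT minus CON was -1.28, a 2.44-fold lower level of long genes relative to short ones, and AT3 minus CON was -1.19. Both had two-sided exact permutation p = 0.1, the smallest that 3 against 3 libraries can give. AT3 minus CPT was 0.10 (exact permutation p = 0.3), within the spread of the libraries.

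**Figure D3:**
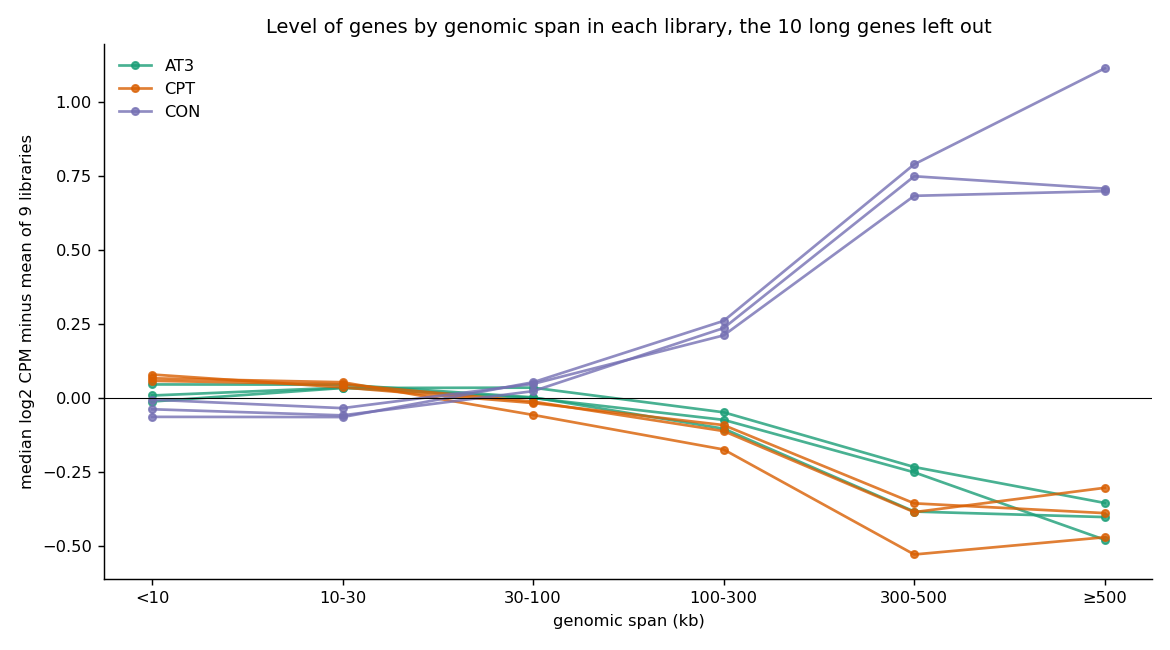
Median log2 CPM, as the difference from the mean of the 9 libraries, for genes in 6 classes of genomic span (kb) with 1 line per library. From 100 kb upward all AT3 and CPT lines lie below 0 and all 3 CON lines above it; between 30 and 100 kb every line lies within 0.06 of 0.

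Long genes also tend to have long transcripts and low levels. Each was held within classes in turn, but not both together. Among genes whose longest transcript measured 4 to 8 kb, those spanning at least 300 kb had a median log2 fold change of -1.13 (n = 106) and those under 30 kb -0.09 (n = 1453). With transcripts of 2 to 4 kb the medians were -0.76 (n = 42) and 0.07 (n = 3723). For transcripts of 8 kb or more they were -1.40 (n = 61) and -0.37 (n = 78), so genes of short span were lower there too. Under a mean level of 1 CPM they were -2.80 (n = 54) and -0.34 (n = 1620). At a mean level of 1 to 5 CPM they were -1.37 (n = 77) and -0.09 (n = 2066), and at 5 to 20 CPM -0.62 (n = 66) and 0.16 (n = 2405). The gap was smaller at 20 to 100 CPM, with -0.21 for 14 long genes and 0.24 for 1592 short ones. Genes were binned by their level over all 9 libraries, which the change itself enters.

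Among other genes of at least 500 kb with a mean of at least 1 CPM in CPT or CON and no overlap of their libraries, the 8 largest decreases had log2 fold changes of -6.88 to -3.64. Cpq, which encodes a plasma carboxypeptidase, spans 511 kb on chromosome 15 and measured 3.38 ± 0.848 CPM in CPT and 47.6 ± 2.25 CPM in CON (edgeR adjusted p = 1.27e-11). Atrnl1, an attractin-like gene of 522 kb on chromosome 19, measured 0.523 ± 0.0464 CPM in CPT and 13.2 ± 1.62 CPM in CON. Plcb1, a phospholipase C gene of 689 kb, measured 0.412 ± 0.158 CPM in CPT and 8.56 ± 0.441 CPM in CON. Pard3b, St6galnac3, Adgrv1 and the synaptotagmin gene Syt1 were also among them.

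Of the 69 other genes of at least 500 kb 6 rose in CPT, 3 of them with a mean of at least 1 CPM in CPT or CON. B3galt1, a galactosyltransferase gene annotated over 557 kb, measured 75.5 ± 4.998 CPM in CPT and 7.17 ± 0.685 CPM in CON (edgeR adjusted p = 3.52e-12). Rasgef1b, a guanine nucleotide exchange factor gene, rose by 1.29 and Kalrn, another exchange factor gene, by 0.51 on the log2 scale. The annotated span of Rasgef1b was 512 kb in GENCODE and 35.5 kb in RefSeq, so its place among long genes depends on the annotation. The other 3, Ptprn2, Nell1 and Nrg1, had log2 fold changes of 4.62, 3.48 and 2.05 at low levels, with 0.928, 0.778 and 0.759 CPM in CPT and 0.0375, 0.0580 and 0.178 CPM in CON.

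**Figure D4:**
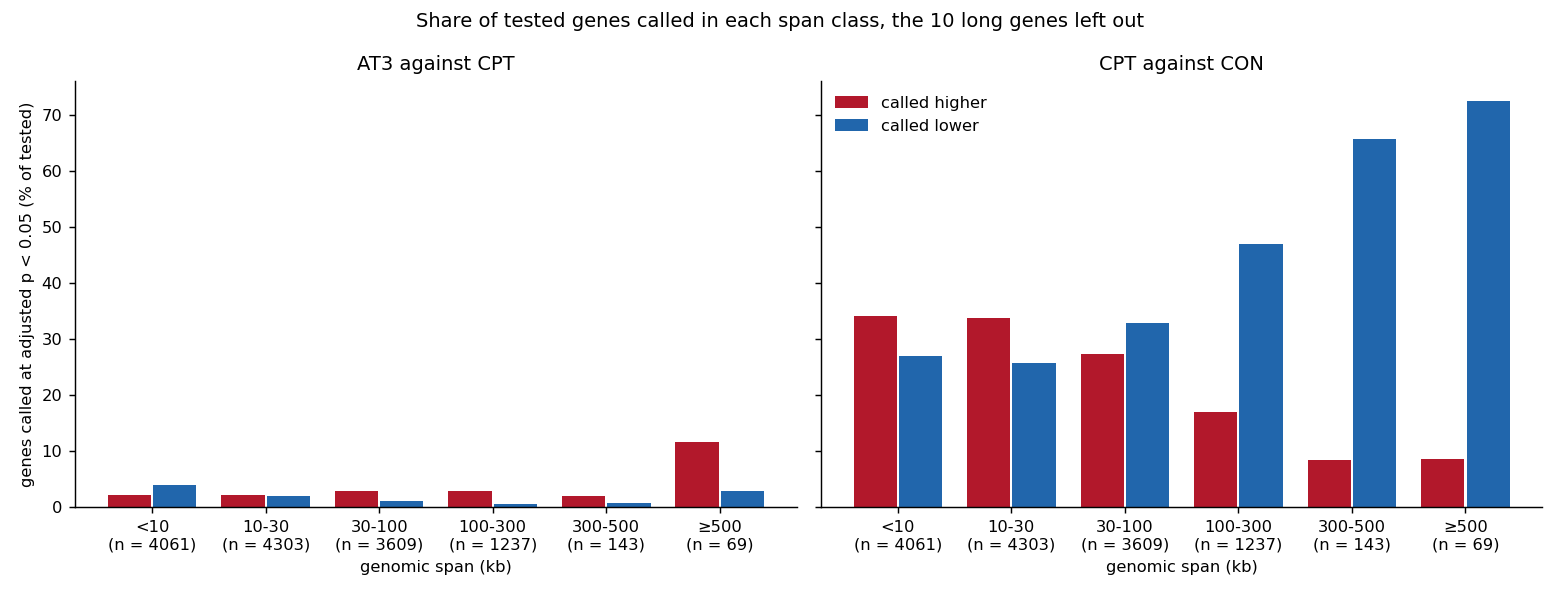
Share of tested genes called higher (red) or lower (blue) by edgeR at an adjusted p under 0.05 in each class of genomic span, with AT3 against CPT on the left and CPT against CON on the right. In CPT against CON the lower share goes from 27.0% below 10 kb to 72.5% from 500 kb. In AT3 against CPT 11.6% of the 69 longest genes were called higher and 2.9% lower, with a median log2 fold change of 0.004 (not drawn).

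A gene's span is not the length that its transcripts cover, because many long genes hold short transcripts. The deposited counts and TPM together give the mean length of the transcripts to which a library's counts were assigned. For genes with 1 annotated transcript this implied length came within 2% of the annotation for 98.8% to 99.8% of 277 to 408 genes per library; the measure was added after the data had been seen. For Macrod2 it was 1001 to 1097 bases in AT3, 969 to 1076 in CPT and 1045 to 1143 in CON. All 9 values lie below 1669 bases, the shortest annotated transcript that crosses over 90% of the gene, so part of the Macrod2 counts in every library was assigned to transcripts covering less of it. Annotated Macrod2 transcripts of 887 and 1049 bases span 24.9 and 25.0 kb, while others of 845, 852 and 1335 bases span 311, 250 and 430 kb. Which of these received the counts cannot be told from a mean length.

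Exoc4 differed from Macrod2 in this. Its implied length was 4068 to 4595 bases in AT3, 3896 to 4474 in CPT and 4442 to 4678 in CON, near 4824 bases, the length of its transcript over 725 kb. Of the 9 values 7, all 3 CON values among them, lie above 4225 bases, the length of the next longest annotated transcript, a retained intron over 102 kb. Counts in those libraries were thus in part assigned to the transcript over 725 kb. The lowest AT3 value and the lowest CPT value lie below both lengths. Dpyd, whose transcript across 871 kb has 4492 bases, had 4216 to 4340 bases in AT3, 4112 to 4280 in CPT and 4450 to 4493 in CON, lower in injured livers without overlap.

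Immp2l in CON livers had an implied length of 949 to 996 bases, near the 977 bases of a transcript that spans 931 kb. It was 970, 429 and 911 bases in the AT3 livers, and 734 and 410 bases in CPT replicates 1 and 2. CPT replicate 3 had too low a TPM for a value. The values of 429 and 410 bases rest on 8 and 7 counts. Immp2l also has an annotated transcript of 239 bases that spans 42.6 kb.

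Among the other long genes B3galt1 had an implied length of 4833 to 5001 bases in the 9 libraries. This is near its transcript of 4977 bases, which spans 4.98 kb, while the transcript that reaches over 370 kb has 769 bases. Atrnl1, which fell, had 6593 to 6602 bases in CON livers, near its single transcript of 6586 bases over 522 kb. Cpq and Syt1 also lay near transcripts over 511 and 513 kb. Adgrv1, which fell, had 1493 to 1537 bases in CON livers, far below the 19338 bases of its transcript over 538 kb. St6galnac3 had 702 to 1490 there, between transcripts of 588 bases over 518 kb and 8169 bases over 527 kb. Kalrn, which rose, had 1740 to 2624 in the 9 libraries, against 8940 for its transcript over 481 kb. Of the 18 long genes that rose, 2 (Arl15 and Tox) had a mean implied length within 2% of a transcript of at least 300 kb and of none shorter, 2 (B3galt1 and Dst) matched transcripts under 100 kb alone, and 14 matched neither way or had no value. Of the 144 that fell, 18 matched transcripts of at least 300 kb alone and 3 transcripts under 100 kb alone. Most of the 144 were not placed: 65 matched no transcript, 47 had no value and 11 matched transcripts of other or mixed spans. The lengths used were means of CPT livers for genes that rose and of CON livers for genes that fell. A protein-coding transcript under 100 kb is annotated for 55.6% of those that rose and 54.6% of 141 with a coding transcript that fell.

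**Figure D5:**
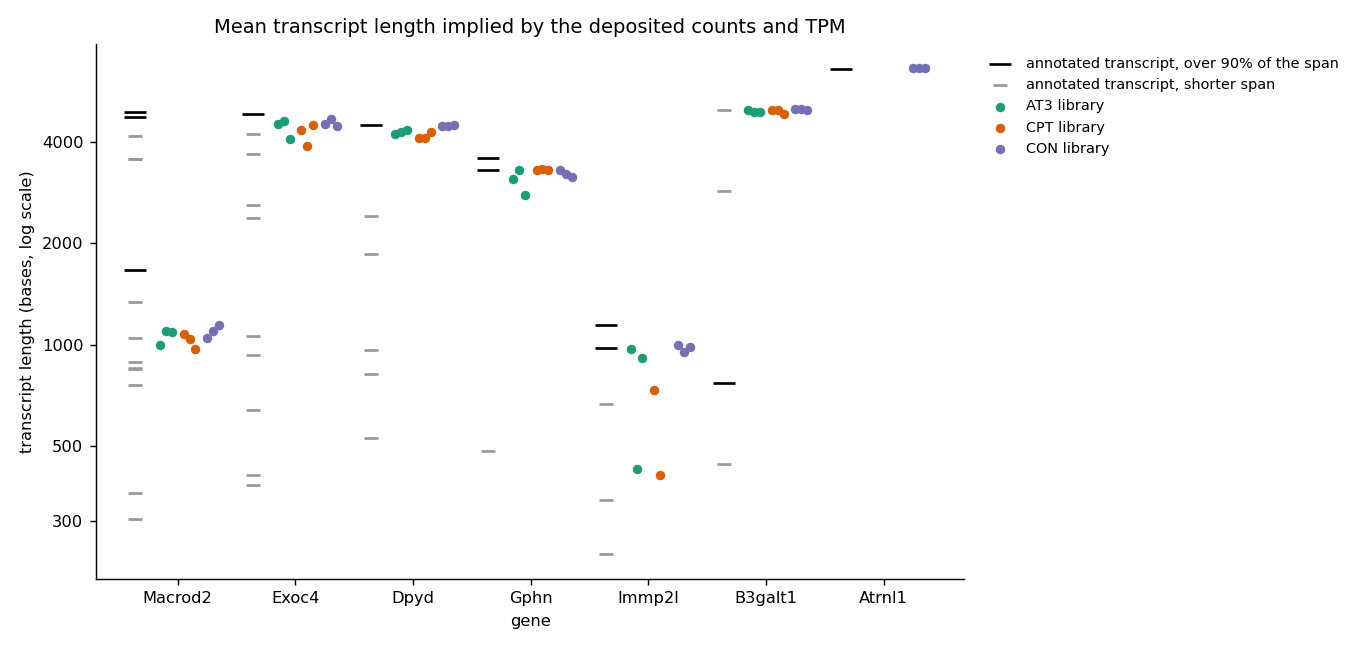
Mean transcript length in bases (log axis) implied by counts and TPM for 7 genes, with 1 coloured point per library (AT3, CPT, CON from left to right) beside the annotated transcripts, drawn in black where they cross over 90% of the span of the longest one and in grey otherwise. Macrod2 points lie below every black mark, B3galt1 points lie on the grey mark at 4977 bases, and Immp2l has 2 injured-liver points near 400 bases.

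In AT3 against CPT, 11 of the 212 long genes rose, 3 fell and 198 were not called. Among 69 genes of at least 500 kb 8 rose (11.6%, against 2.46% of all tested genes) and 2 fell. As a class these 69 did not shift, with a median log2 fold change of 0.004 and 47.8% of them negative. Of the 13 genes of at least 1 Mb 0 rose and 1, Fgfr2, fell, and between 300 and 500 kb 2.1% of 143 genes rose. Atrnl1 measured 1.15 ± 0.0588 CPM in AT3 and 0.523 ± 0.0464 CPM in CPT (edgeR adjusted p = 0.0116), and Plcb1 1.06 ± 0.176 CPM in AT3 and 0.412 ± 0.158 CPM in CPT (edgeR adjusted p = 0.0160). Both stayed far below their CON level. Tenm3, a teneurin adhesion gene, had a log2 fold change of 0.90 and Fars2, a mitochondrial tRNA synthetase gene, one of 0.84. Ppfia2 (-0.98), Zbtb20 (-0.65) and Fgfr2 (-0.60) fell. Fgfr2 spans 2961 kb in GENCODE but 104 kb in RefSeq, so its place among long genes depends on the annotation. The count of 11 was 1, 5 and 3 without AT3 replicates 1, 2 and 3, and 5, 3 and 21 without CPT replicates 1, 2 and 3. The count of 3 was 0, 0 and 1, and 1, 1 and 7, in the same order. Over all genes the number called higher, 337, was 92, 103 and 112, and 171, 118 and 760, again in that order. The number called lower over all genes, 304, was 85, 68 and 115, and 182, 110 and 548. The counts of long genes thus went up and down with the calls over all genes.

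Genes inside the long genes were mostly too low to test. Trim32, a ubiquitin ligase gene that lies within Astn2 on the other strand, had 84, 79 and 85 counts in AT3 livers, 67, 80 and 64 in CPT livers, and 26, 34 and 27 in CON livers. It rose in CPT against CON with a log2 fold change of 0.77 ± 0.21 (SE; edgeR adjusted p = 0.00585), in the livers where Astn2 was nearly at 0. Lrrn3 within Immp2l had at most 17 counts and Flrt3 within Macrod2 at most 2 in a library.

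Among the 8 genes whose profile over the 9 libraries lay nearest to the mean profile of the 10, by Euclidean distance of centred log2 CPM, were Carmil1, Fbxo21, Dock8, Bcas3, Coq8a, Cyp4a12a and Bdh2 (distances 0.391 to 0.624). Carmil1, Dock8 and Bcas3 span 203 to 473 kb, and Fbxo21, Coq8a, Cyp4a12a and Bdh2 span 23.2 to 34.4 kb. Carmil1 measured 2.66 ± 0.382 CPM in AT3, 2.005 ± 0.216 CPM in CPT and 18.04 ± 1.004 CPM in CON. The fatty acid hydroxylase gene Cyp4a12a, of 33.8 kb, measured 57.3 ± 4.84 CPM in AT3, 57.2 ± 7.27 CPM in CPT and 395 ± 60.02 CPM in CON. Genes of ordinary span were thus among the nearest to this mean, which averages 8 genes lower in CPT than in CON with 2 that were higher. The mean also includes the CPT and CON values that chose the 10, so no test is read from it.

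Of 34 genes of transcription elongation and transcription-coupled repair, 13 rose in CPT against CON, 7 fell and 14 were not called, near the share of calls over all genes, with a median log2 fold change of 0.08 (edgeR adjusted p under 0.05). The subunits of the pausing factor NELF differed: Nelfe rose with a log2 fold change of 1.12, Nelfa fell with -0.51 (edgeR adjusted p = 0.0164) and Nelfb, at -0.13, was not called. Of its partner DSIF, Supt5 rose by 0.81 and Supt4a by 0.46 on the log2 scale. The histone chaperone subunit gene Ssrp1 had a log2 fold change of 1.05. Ell2, of the super elongation complex, had a log2 fold change of 0.89. Hexim1, an inhibitor of the elongation kinase P-TEFb, had -1.60 and Top2b, a topoisomerase gene linked to long-gene expression in neurons of mice, -1.12. In AT3 against CPT 1 of the 34 rose and 1 fell, where 2.46% of all tested genes rose and 2.22% fell.

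Other features of the libraries moved with the same groups. Transcripts of the mitochondrial genome took 10.3% ± 0.944 of counts in AT3, 13.5% ± 2.62 in CPT and 31.7% ± 5.54 in CON, and haemoglobin transcripts 0.000633%, 0.000444% and 0.0642% in that order. Genes of at least 300 kb took 0.214% of the other counts in AT3, 0.209% in CPT and 0.326% in CON, and 295 to 318, 286 to 295 and 345 to 355 of them had a count. Markers of sinusoidal endothelium summed to 29.4 to 35.6 CPM in AT3, 25.8 to 34.6 in CPT and 148 to 150 in CON. Of these markers 8 of 10 fell in CPT against CON, where 30.8% of all tested genes fell. Markers of stellate cells summed to 48.7 to 63.8 CPM, 72.2 to 81.3 and 353 to 422 in that order, with 9 of 10 lower in CPT; one of them, Reln, is itself a gene of at least 300 kb. In bulk liver, fewer cells of a type and less RNA per cell cannot be told apart.

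Since Ntm, Astn2 and Syt1 are known from neurons, neural and glial markers were read as well. The 13 summed to 1.68 to 1.87 CPM in AT3, 2.15 to 2.43 in CPT and 10.6 to 12.3 in CON. Without Syt1, which had 8.86 CPM in CON, the other 12 summed to 1.03 to 1.18 CPM in AT3, 1.53 to 1.77 in CPT and 2.42 to 2.98 in CON. Snap25 and Slc17a7 were at 0 in all 9 libraries, 4 of the 13 were tested, and only Syt1, which is one of the long genes above, fell in CPT. Kupffer cell markers summed to 10.7 to 12.8 CPM in AT3, 8.62 to 9.80 in CPT and 21.9 to 27.6 in CON, with 4 of 5 lower and 1 higher in CPT. Of 6 hepatocyte markers in the table, 1 rose, 2 fell and 3 were not called in CPT, and they summed to 72757 to 78292 CPM in AT3, 47291 to 63132 in CPT and 65783 to 70168 in CON. Nuclear-retained RNAs, 6 in the list, summed to 195 to 251 CPM in AT3, 183 to 289 in CPT and 197 to 240 in CON, and of 5 tested 2 (Meg3 and Rian) fell and 3, Malat1 and Neat1 among them, were not called in CPT against CON. Beside each of these lists, 30.8% of all tested genes fell in CPT against CON and 60.8% were called either way. What part these features of the libraries have in the levels of the long genes was not tested.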

How the data were processed

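Liver RNA of male BALB/c mice was sequenced after a SMARTer library preparation, per the labels' protocols. The authors deposited estimated counts per gene and TPM values for the 9 libraries. No aligner or counting tool is named in the labels, and the submitters' processing notes list GRCm38, mm10 and GRCm39 without a role. Of the deposited estimated counts 7.96% to 9.55% per library were not whole, and counts were rounded for the tests. Whether counting used strand is not given, so overlapping genes cannot be told apart; exons of Fhit, Naaladl2 and Gphn overlap those of 1 other gene each. The deposited TPM values, scaled by the authors to length and to a fixed total, served for levels between genes, implied lengths and alternatives.

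GENCODE M21 (GRCm38) gave spans and held 91.4% of the identifiers and 98.1% of tested genes; RefSeq spans, for 12686 tested genes, were an alternative added after the data had been seen. The main test was the quasi-likelihood test of edgeR 4.0.16 in R 4.3.3, fitted on the 9 libraries together. Counts were TMM-scaled, low genes were removed with filterByExpr, and p-values were adjusted over 13686 genes by Benjamini-Hochberg. TMM factors were 0.726 to 0.963 in CON and 1.05 to 1.13 in the other groups, and 3 counts equal 0.0934 to 0.169 CPM. Alternatives were DESeq2 1.42.0, its size factors, no filter, limma 3.58.1 on log2(TPM + 1) and log2(TPM + 0.1), fewer libraries, the most abundant genes left out and other span limits. On simulated counts for AT3 against CPT (13193 genes) edgeR found 23.9% of the genes with a simulated 1.5-fold change, 83.6% of those with a 2-fold and 100% of those with a 4-fold one. Changes were placed only in genes with more expected counts than Immp2l, Wwox, Fhit, Astn2, Ntm and Naaladl2 averaged in CPT libraries. All genes were also given the same simulated spread. The shares found therefore do not apply to those low genes. No pair of replicates agreed within sampling noise (chi-square per degree of freedom 7.07 to 97.0).

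Implied length is the deposited count divided by the deposited TPM, calibrated per library on genes with 1 transcript, for at least 5 counts and 0.3 TPM. The members, lists and rules were chosen with earlier results of these data known. Named besides them were the 8 largest rises and falls of 500 kb or more in CPT against CON, up to 4 each way of 300 kb or more in AT3 against CPT, the 8 nearest profiles, coding genes inside a member and 6 elongation genes; Arl15, Tox, Dst, Ptprn2, Nell1, Nrg1, Nelfa, Nelfb and Supt4a were named after their values were seen. A few genes that this rule names are not reported here.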

Additional observations from a re-analysis of the deposited data

How the results depend on the processing

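In AT3 against CPT, DESeq2 called 1 of the 10 long genes, edgeR without a filter 2, and edgeR with a library left out 0 to 1. With a library left out, the log2 fold change of AT3 over CPT lay between -0.28 (without CPT replicate 3) and 0.71 for Wwox, between -1.77 (without AT3 replicate 1) and 2.51 for Fhit, and between -0.062 (without AT3 replicate 2) and 0.20 for Macrod2, which was also negative without CPT replicate 1 (-0.018) or 3 (-0.048); none of these 3 genes was called in either setting. The number of other genes of at least 300 kb called lower in AT3 against CPT, 3, was 6 without a filter, 0 on either TPM scale and 0 to 7 with a library left out, and 11 with a limit of 100 kb. The number called higher, 11, was 21 without a filter, 0 on either TPM scale and 1 to 21 with a library left out, and 46 with a limit of 100 kb. Calls over all genes moved too, from 337 higher and 304 lower to 604 and 550 without a filter. They were 29 and 16 on log2(TPM + 1), and 20 and 12 on log2(TPM + 0.1). In CPT against CON the 144 lower genes became 87 on log2(TPM + 1) and 89 on log2(TPM + 0.1), and the 18 higher genes 33 on each. In AT3 against CON, 139 genes of at least 300 kb were lower (81 and 83 on the 2 TPM scales) and 23 higher (46 and 48). With limits of 100 and 500 kb the lower and higher counts were 726 and 228, and 50 and 6, in CPT against CON, and 697 and 262, and 48 and 7, in AT3 against CON; these differ because other genes enter. The cause of the differences between scales was not tested. The long-gene offset kept its sign in all alternatives run, with -1.35 to -0.52 for CPT against CON. RefSeq spans gave 137 lower and 17 higher genes there.

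Replicate numbers did not pair the samples: deviations of same-numbered libraries correlated at -0.0378 to 0.0762. With the replicate number as a block, 0 of the 10 genes were called in AT3 against CPT and 1 and 8 of the other long genes were lower and higher. Depth limits Fhit, Astn2, Ntm and Naaladl2 most, with 0 to 3 counts per injured liver.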
